A study of Homo sapiens with 4 samples.

Results

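The genes described here encode chromatin modifiers and remodellers, the enzymes and reader proteins that write, erase or bind chemical marks on histones and DNA or move nucleosomes. They were chosen by symbol, as genes that begin with KDM, KMT, SETD, HDAC, SIRT, PRMT, DNMT, TET and a digit, CBX, CHD, SMARC, NSD, KAT or BRD, together with EZH1, EZH2 and TRIM28 and without KDM7A. The rule found 109 of the 14884 genes tested. Of these, 13 were set apart as sharing only the letters. In that set 7 encode proteins known for other functions, such as the sterol enzyme NSDHL, the choline dehydrogenase CHDH and the katanin family. The other 6 are antisense, divergent or pseudogene transcripts. The remaining 96 are called chromatin genes here by their symbol families, and the text below refers to them unless it says otherwise. They include enzymes described below as acting on other substrates or outside the nucleus, such as SETD3, HDAC10, SIRT3 and SIRT5. All SMARC genes, as well as KMT2A and SETDB1, were not analysed here, and 1 gene of the Y chromosome is counted but its level is not given.

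The cells were LS411N-5FU-R, a derivative of the metastatic human colon carcinoma line LS411N that had been made resistant to 5-fluorouracil, and every sample was of this resistant line. Of the 4 arrays, 2 measured cells kept in 50 nM verticillin A for 3 days and 2 measured cells kept for the same 3 days in 0 nM, the control. Verticillin A is an epipolythiodioxopiperazine made by fungi. The series concerns histone methylation, FAS silencing and resistance to 5-fluorouracil in this tumour, and the comparison asks how transcript levels differ once the resistant cells have been exposed to the compound. Nothing in the labels states that arrays within a group stand for separate cultures; the tests therefore measure only the spread between these arrays, which may be technical. The model is 1 cell line at 1 dose and 1 time, and the parental line was not analysed here.

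Histone tails carry methyl and acetyl groups that are placed by writers, removed by erasers and bound by readers, and these marks set how open a stretch of chromatin is. Acetylation and methylation of some lysines go with active genes, whereas methylation of other lysines and of cytosine in DNA goes with silent ones. Many of the genes are mutated or misexpressed in colorectal and other cancers, and several are drug targets. The arrays report their transcripts alone, not the marks or the enzymes' activity.

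Of the labelled cell type's markers, EPCAM, an epithelial adhesion molecule, had log2 levels near 10.94 with verticillin A and from 11.09 to 11.13 in the control, and the epithelial keratin KRT18 averaged 10.44 and 10.37. Several intestinal markers were low: KRT20, CDX1 and CEACAM5 had mean levels of 4.67, 4.12 and 3.67 with verticillin A and of 4.61, 4.06 and 3.55 in the control, against a median of 5.84 over all genes. Of 9 measured epithelial markers of 11 listed, the keratin KRT19 rose by 0.44 ± 0.09 and VIL1, a microvillus protein, fell by 0.62 on the log2 scale, and their part in the results below was not tested. The measured leukocyte, fibroblast and endothelial markers (5 genes: CD14, DCN, PECAM1, VWF and KDR) lay between 3.40 and 4.42 with verticillin A and between 3.38 and 4.55 in the control, and none of them passed the test.

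Verticillin A left most transcripts of chromatin genes within a narrow range. The limma test called 3 of the 96 genes higher and 7 lower at an adjusted p under 0.05, and 86 did not pass. SIRT7, KAT2A and HDAC10 rose, and KAT14, KMT5B, HDAC5, KAT6B, KDM5B, KDM6B and CHD2 fell. The share called, 10.4%, stood beside 8.65% of all 14884 genes, of which 3.55% were called higher and 5.10% lower, so the number of calls among chromatin genes was close to the background. With the arrays centred on their medians, the genes called over the whole table were 750 higher and 668 lower in place of 528 and 759, while the chromatin genes stayed at 3 and 7. The median log2 change of the 96 genes was -0.02, against -0.01 over all genes, and 43 changes were positive and 53 negative.

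No chromatin gene changed by as much as 1 on the log2 scale. The changes ran from -0.58 to 0.58, and 3 of 96 reached a size of 0.5. Over all 14884 genes, 83 reached a size of 1 and 706 a size of 0.5. The median size of change was 0.128 for the 96 genes and 0.116 over all genes. Both treated arrays lay above both control arrays for 26 of the 96 genes and below both for 35, or 63.5% together. Over all genes these arrangements held for 25.7% (above), 29.1% (below) and 54.8% (either). Only 12 of the 96 genes had a mean level below the median of all genes, and a low level cannot be separated from background here. At an unadjusted p under 0.05 were 33 of the 96 genes (34.4%), beside 26.7% of all genes and 28.8% of protein-coding genes. With the dimmest 50% of genes left out, the shares were 40.5% of the chromatin genes kept and 44.2% of all genes kept. The unadjusted counts below are to be read beside these shares.

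**Figure D1:**
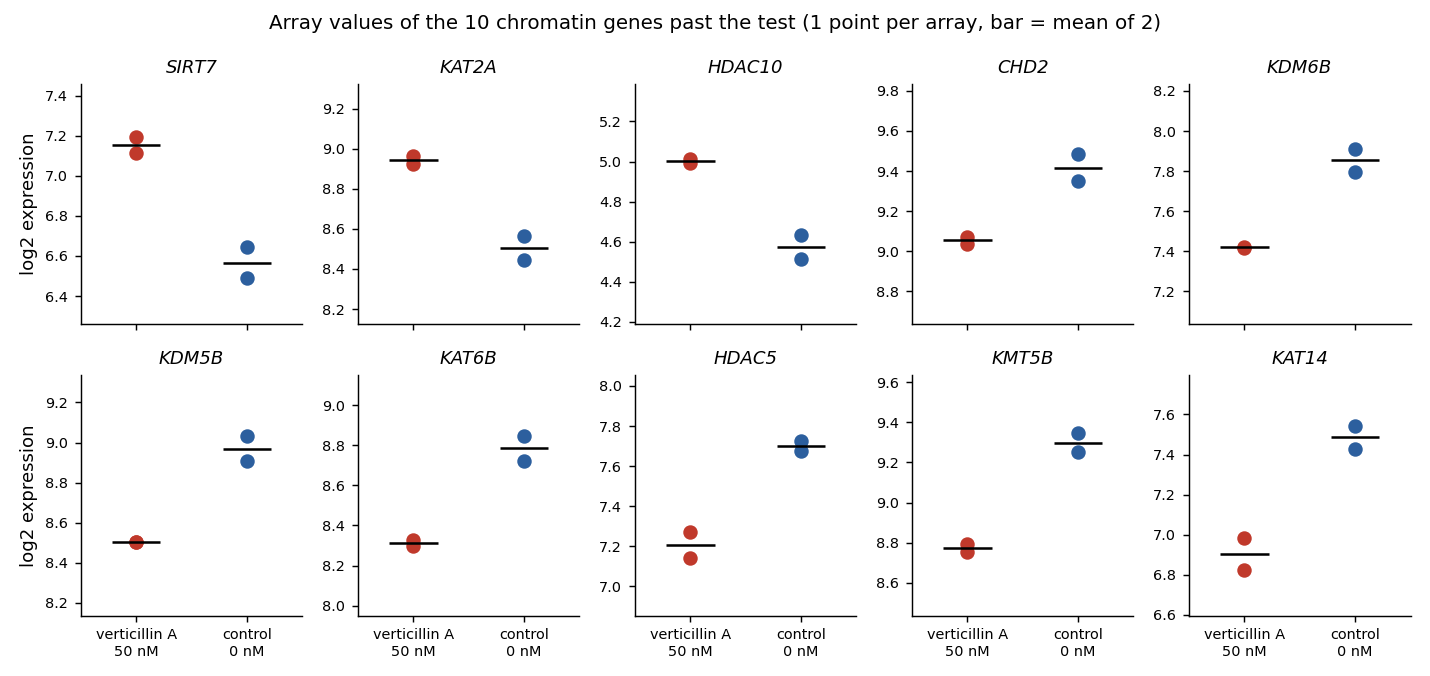
Log2 expression of the 10 chromatin genes past the test, 1 panel a gene, with 1 point per array (verticillin A red at left, control blue at right) and a bar at the mean of 2 arrays. Each panel spans 1.2 log2 units. In all 10 panels the treated pair lies wholly on one side of the control pair, above it for SIRT7, KAT2A and HDAC10 and below it for the other 7.

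All of these calls needed the 4 arrays. With any single array left out, which leaves 1 residual degree of freedom, limma called 0 of the 96 genes. The same fits called 0 of all 14884 genes without either control array, 139 (0.934%) without the first verticillin A array and 153 (1.03%) without the second. At an unadjusted p under 0.05 these fits had 17 to 31 of the 96 genes (17.7% to 32.3%), beside 2716 to 3715 of all genes (18.2% to 25%). In each of the 10 genes the treated and control pairs did not overlap, so leaving out an array could not turn the direction of change.

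Among the 18 genes grouped by symbol as writers of lysine methylation, SETD3 included, 1 passed (5.56%, beside 8.65% of all genes). KMT5B, which di- and trimethylates a lysine in the tail of histone H4, had log2 levels of 8.79 and 8.75 on the verticillin A arrays and 9.25 and 9.34 on the control arrays. It was 1.44-fold lower (log2 change -0.53 ± 0.07, SE, adjusted p = 0.0202 by limma), with the treated pair clear of the control pair. Its partners on the same residue did not pass: KMT5A, the monomethylase, had a log2 change of -0.11 ± 0.07 and KMT5C, the other di- and trimethylase, one of 0.14 ± 0.08. Whether KMT5B differed from KMT5C in its change was not tested.

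The catalytic subunits of Polycomb repressive complex 2, which methylates H3 at a lysine linked with silencing, did not pass. EZH2 averaged 10.86 ± 0.06 with verticillin A and 10.92 ± 0.06 in the control (SD, n = 2 per group), and the 95% interval of its log2 change ran from -0.24 to 0.13. EZH1 averaged 9.03 ± 0.05 with verticillin A and 8.90 ± 0.05 in the control, with an interval from -0.05 to 0.31. Both intervals stayed well under 1 in size on the log2 scale, but they measure only the spread between these arrays and not that between cultures.

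Writers of the H3 marks found at active promoters and gene bodies moved little. SETD1A, the catalytic subunit of a COMPASS complex, had 7.28 and 7.34 on the treated arrays and 7.04 and 7.07 on the control arrays, a change of 0.25 ± 0.07 that missed the threshold (adjusted p = 0.0823). KMT2B, KMT2C and KMT2D, which belong to the same enzyme family, had log2 changes of 0.08, -0.05 and 0.04. The enzymes that dimethylate or trimethylate H3 in gene bodies had changes of -0.18 ± 0.09 (SETD2), -0.01 ± 0.07 (NSD1), 0.08 ± 0.08 (NSD2) and -0.21 ± 0.09 (NSD3). SETD5, a SET domain protein, had 10.13 and 10.17 on the treated arrays and 10.37 and 10.43 on the control arrays, which did not overlap (adjusted p = 0.0864). SETD3, an actin histidine methyltransferase that shares the symbol, lay at 10.21 and 10.24 with verticillin A and 10.23 and 10.22 in the control.

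Of the 8 arginine methyltransferase genes 0 passed in limma, with 4 at an unadjusted p under 0.05 that split in direction. PRMT6, a nuclear enzyme that asymmetrically dimethylates H3, had 5.87 and 5.92 on the treated arrays and 6.16 and 6.25 on the control arrays (log2 change -0.31 ± 0.07, adjusted p = 0.0595). PRMT9 and PRMT3, known for methylating a splicing factor and a ribosomal protein, had changes of -0.27 ± 0.07 and -0.24 ± 0.07. PRMT5, the main enzyme of symmetric dimethylation, had a change of 0.20 ± 0.07 (adjusted p = 0.161). PRMT1, the main asymmetric enzyme, had overlapping groups, at 7.10 and 7.06 with verticillin A and 7.05 and 7.15 in the control.

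Of 18 lysine demethylase genes 0 rose and 2 fell (11.1% called, beside 8.65% of all genes). KDM5B, which removes methyl groups from an H3 lysine of active promoters, had 8.50 on both treated arrays, against 8.91 and 9.03 on the control arrays, and was 1.38-fold lower (log2 change -0.47 ± 0.08, adjusted p = 0.0283). KDM6B, which removes the methyl groups that Polycomb repressive complex 2 adds, had 7.42 on both treated arrays, against 7.80 and 7.91 on the control arrays, and was 1.35-fold lower (-0.43 ± 0.07, adjusted p = 0.0304). In both genes the groups were well apart and the treated pair was tighter than the control pair.

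The relatives of these enzymes differed in their values. KDM5C and KDM5A had log2 changes of -0.27 ± 0.09 and -0.03 ± 0.07, and KDM6A, which acts on the same residue as KDM6B, one of -0.09 ± 0.07; none of the 3 passed. KDM4A lay just outside the threshold, with 8.69 and 8.65 on the treated arrays and 8.96 and 9.02 on the control arrays (-0.32 ± 0.07, adjusted p = 0.0514). In the whole group both treated arrays lay below both control arrays for 8 genes (44.4%, beside 29.1% of all genes) and above both for 2 (11.1%, beside 25.7%).

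The demethylases of another H3 lysine linked with silencing include KDM4A, KDM4B, KDM4C, KDM4D, KDM3A and KDM3B. In limma 0 of these 6 passed, with KDM4A and KDM4D at an unadjusted p under 0.05. KDM4B, KDM4C and KDM4D had log2 changes of 0.13 ± 0.10, -0.09 ± 0.08 and 0.25 ± 0.07, and KDM3A and KDM3B changes of 0.06 ± 0.07 and -0.15 ± 0.07. KDM1A, the flavin-dependent demethylase of the CoREST complex, had 11.14 and 11.11 with verticillin A and 11.07 and 11.17 in the control, and its groups overlapped. Its paralog KDM1B had a change of -0.23 ± 0.09 (adjusted p = 0.18).

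Acetyltransferase genes went both ways, with 1 of 7 higher and 2 lower (42.9% called, beside 8.65% of all genes). At an unadjusted p under 0.05 in limma were 5 of the 7 (71.4%, beside 26.7%), and no test was made of this small list. KAT2A, also known as GCN5, the enzyme of the SAGA and ATAC coactivator complexes, had 8.97 and 8.92 on the treated arrays and 8.45 and 8.56 on the control arrays. It rose 1.36-fold (log2 change 0.44 ± 0.08, adjusted p = 0.0312). KAT14, a further acetyltransferase subunit of ATAC, had 6.99 and 6.83 on the treated arrays, against 7.54 and 7.43 on the control arrays, the deepest fall of the chromatin genes (1.5-fold lower, -0.58 ± 0.09, adjusted p = 0.0247). KAT6B, the MYST family enzyme also called MORF, had 8.33 and 8.30 with verticillin A and 8.72 and 8.85 in the control and was 1.38-fold lower (-0.47 ± 0.08, adjusted p = 0.0277).

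KAT2B, or PCAF, the paralog that can replace KAT2A, had 7.36 and 7.43 on the treated arrays and 7.63 and 7.62 on the control arrays (-0.23 ± 0.07, adjusted p = 0.106), below the control pair though not past the test. Whether the paralogs differed in their change was not tested. KAT8, the main acetyltransferase for an H4 lysine, had a change of 0.23 ± 0.07 (adjusted p = 0.114), and KAT5 and KAT7 had changes of 0.12 ± 0.08 and -0.09 ± 0.07.

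Among 18 deacetylase genes 2 rose and 1 fell (16.7% called, beside 8.65% of all genes). SIRT7, a nucleolar NAD-dependent deacetylase of H3, had 7.11 and 7.19 on the verticillin A arrays, against 6.49 and 6.64 on the control arrays, and rose 1.5-fold (log2 change 0.58 ± 0.08, adjusted p = 0.0219), the furthest rise of the chromatin genes. HDAC10, a cytoplasmic enzyme known as a polyamine deacetylase, had 4.99 and 5.01 with verticillin A and 4.52 and 4.63 in the control (1.35-fold higher, 0.43 ± 0.07, adjusted p = 0.0323). HDAC10 was the only called chromatin gene whose mean level was below the median of all genes. HDAC5, a signal-regulated class IIa enzyme that shuttles between nucleus and cytoplasm, had 7.14 and 7.27 with verticillin A and 7.68 and 7.73 in the control and was 1.41-fold lower (-0.49 ± 0.08, adjusted p = 0.0266).

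The nuclear class I deacetylases, which serve the NuRD, SIN3, CoREST and NCOR corepressors, did not pass. HDAC1 averaged 10.65 ± 0.02 with verticillin A and 10.59 ± 0.02 in the control (SD, n = 2 per group), and the 95% interval of its log2 change ran from -0.11 to 0.22. HDAC2 and HDAC3 had intervals from -0.28 to 0.05 and from -0.26 to 0.26. The other class IIa genes had changes of -0.04 ± 0.10 (HDAC4), -0.09 ± 0.11 (HDAC7) and 0.29 ± 0.07 (HDAC9, adjusted p = 0.075), so HDAC5 alone of these 4 passed, though the differences between them were not tested.

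The other sirtuins spread around 0. SIRT2, mainly a cytoplasmic deacetylase, had a change of 0.27 ± 0.07 (adjusted p = 0.0753), and its treated pair, at 6.30 and 6.23, lay above its control pair. The mitochondrial SIRT3 and SIRT5 had changes of -0.32 ± 0.08 (adjusted p = 0.0721) and -0.29 ± 0.10 (adjusted p = 0.133), and for both the treated pair lay below the control pair. SIRT1, the nuclear sirtuin studied most, had a change of -0.07 ± 0.07, and SIRT6 one of 0.02 ± 0.09.

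**Figure D2:**
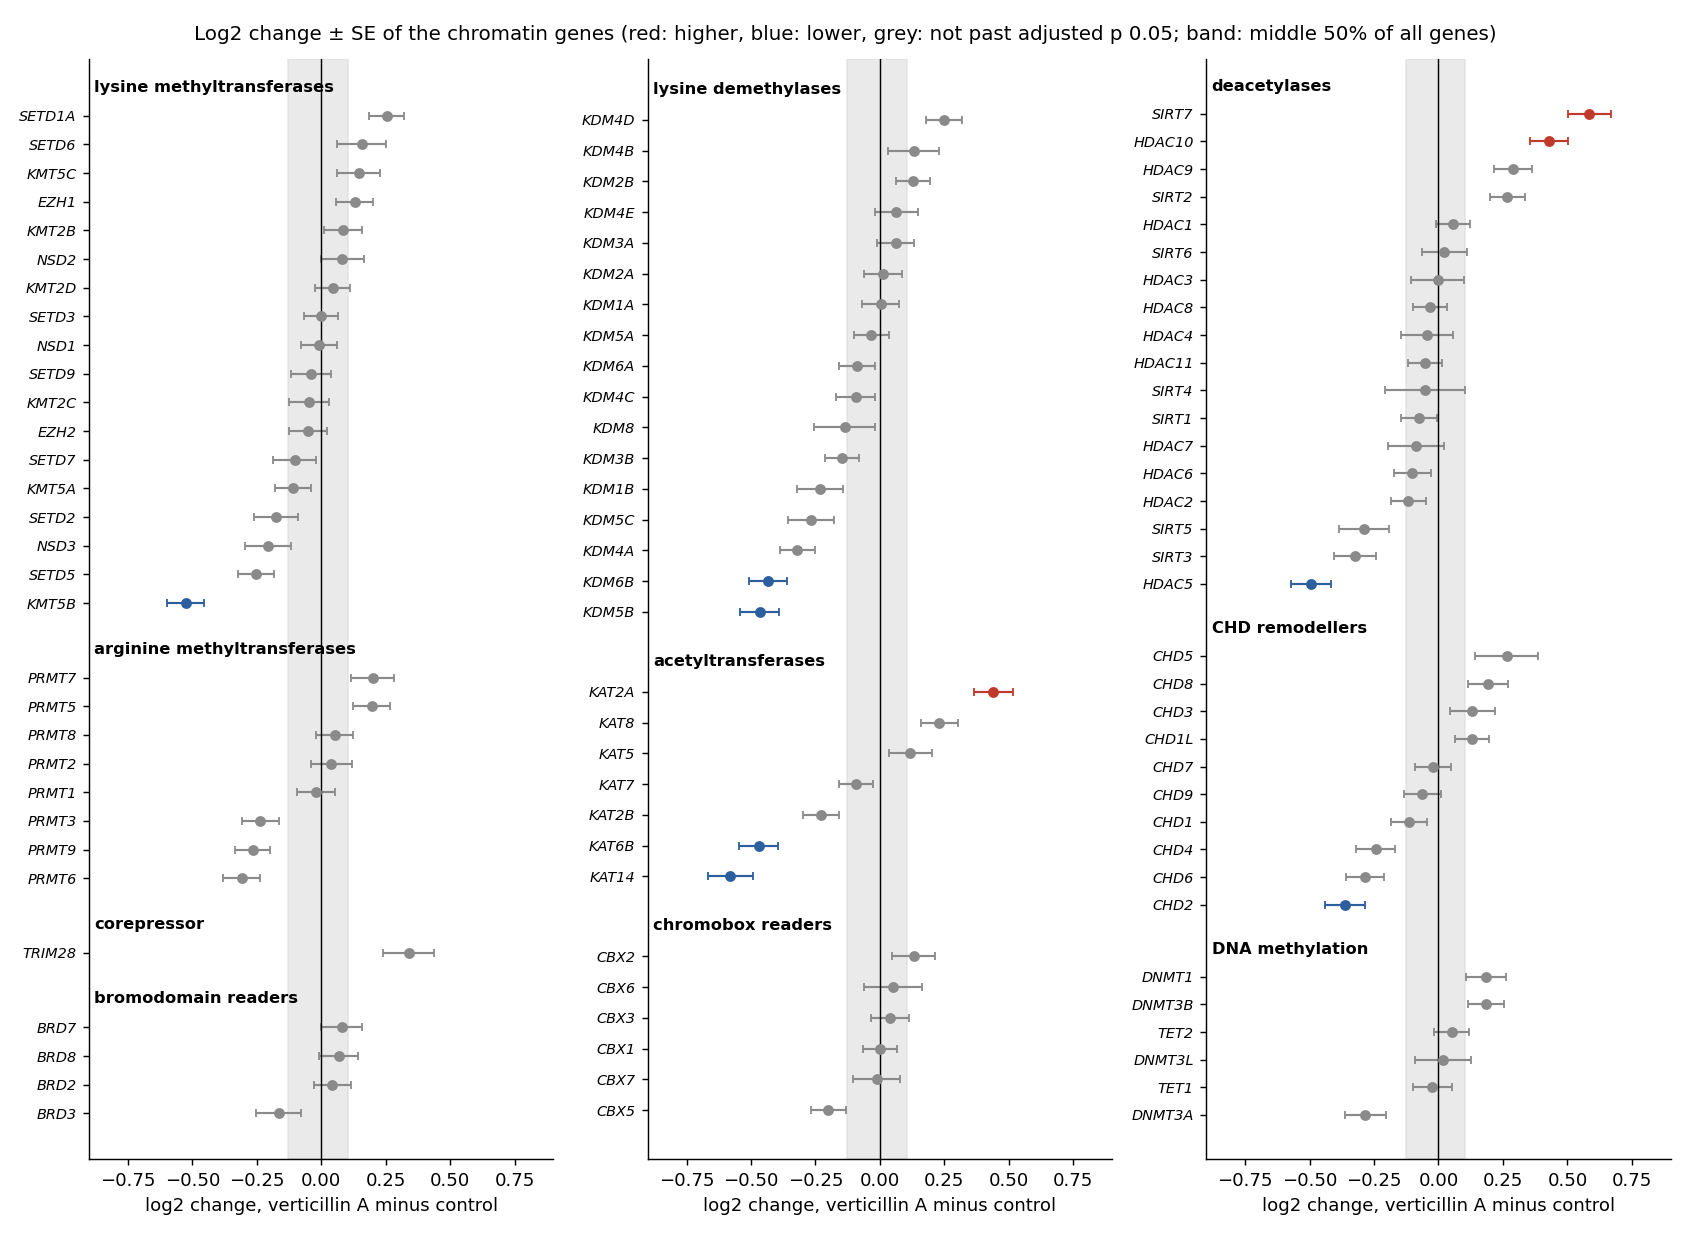
Log2 change (verticillin A minus control) with its standard error for 95 chromatin genes, grouped by role and ordered by change, with genes past the test in red (higher) and blue (lower) and the others in grey. The grey band is the middle 50% of all 14884 genes, and most points fall in or near it, with the 10 called genes beyond 0.36 in size.

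Readers of acetylated and methylated histones held no calls. Of 4 bromodomain genes and 6 chromobox genes 0 passed in limma, with 1 at an unadjusted p under 0.05. That gene was CBX5, which encodes the heterochromatin protein HP1 alpha, at 9.34 and 9.36 on the treated arrays and 9.53 and 9.58 on the control arrays (log2 change -0.20 ± 0.07, adjusted p = 0.133). CBX1 and CBX3, which encode the other HP1 proteins, had changes of 0.001 ± 0.07 and 0.04 ± 0.07. The bromodomain gene BRD2, an acetyl-lysine reader of the BET family, had overlapping groups, at 9.27 and 9.29 with verticillin A and 9.28 and 9.19 in the control. BRD3, its paralog, had a change of -0.17 ± 0.09 (adjusted p = 0.309).

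Among 10 CHD remodellers, ATPases that slide or evict nucleosomes, 0 rose and 1 fell (10.0% called, beside 8.65% of all genes). CHD2 had 9.04 and 9.07 on the treated arrays, against 9.35 and 9.48 on the control arrays, and was 1.29-fold lower (log2 change -0.36 ± 0.08), with an adjusted p of 0.0499 at the very edge of the threshold. CHD6 and CHD4 also had treated pairs below their control pairs (-0.29 ± 0.07, adjusted p = 0.0769, and -0.24 ± 0.08, adjusted p = 0.117). CHD4 is the main ATPase of the NuRD complex, and its paralog CHD3 had a change of 0.13 ± 0.09. CHD8, which binds beta-catenin, had a change of 0.19 ± 0.08 (adjusted p = 0.187).

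Genes of DNA methylation held no calls among 6, with 2 at an unadjusted p under 0.05 in limma. DNMT1, the maintenance methyltransferase, averaged 10.93 ± 0.03 with verticillin A and 10.75 ± 0.08 in the control (SD, n = 2 per group, log2 change 0.18 ± 0.08, adjusted p = 0.20 by limma). The de novo enzymes had changes of -0.28 ± 0.08 (DNMT3A, adjusted p = 0.0884) and 0.18 ± 0.07 (DNMT3B, adjusted p = 0.172), and for both the groups did not overlap. TET1 and TET2, which oxidise methylcytosine, had changes of -0.02 ± 0.07 and 0.05 ± 0.07.

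TRIM28, the corepressor that KRAB zinc finger proteins use to recruit H3 methylation, had 11.25 and 11.29 on the treated arrays and 10.81 and 11.04 on the control arrays. Its treated pair lay above its control pair, but the control arrays differed by more than the treated ones, and the change of 0.34 ± 0.10 did not pass (adjusted p = 0.096).

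The promoters of called genes are shown to set out the sequence before the start of these transcripts. RefSeq windows of GRCh38.p14 with a single listed start were present for 4 of the 10 called genes, KAT2A and HDAC10 among those that rose and KDM5B and CHD2 among those that fell. The 200 bases before the start are printed, at chr17:42121368-42121567 (minus strand) for KAT2A, chr22:50251266-50251465 (minus strand) for HDAC10, chr1:202808422-202808621 (minus strand) for KDM5B and chr15:92900124-92900323 (plus strand) for CHD2. Capitals mark the GC box GGGCGG and the CCAAT box, searched on both strands, and GC boxes may overlap each other.
KAT2A: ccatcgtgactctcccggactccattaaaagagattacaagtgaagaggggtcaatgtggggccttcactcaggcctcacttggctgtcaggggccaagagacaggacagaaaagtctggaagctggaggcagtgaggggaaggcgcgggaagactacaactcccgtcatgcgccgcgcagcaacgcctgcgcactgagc
HDAC10: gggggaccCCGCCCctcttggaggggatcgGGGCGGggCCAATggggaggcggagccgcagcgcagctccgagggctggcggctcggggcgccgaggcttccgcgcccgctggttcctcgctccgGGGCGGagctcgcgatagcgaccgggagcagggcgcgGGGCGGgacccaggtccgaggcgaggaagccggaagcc
KDM5B: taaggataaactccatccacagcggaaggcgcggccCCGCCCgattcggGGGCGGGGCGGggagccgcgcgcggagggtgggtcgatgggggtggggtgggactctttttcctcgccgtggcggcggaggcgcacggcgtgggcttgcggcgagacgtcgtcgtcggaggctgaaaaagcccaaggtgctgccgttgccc
CHD2: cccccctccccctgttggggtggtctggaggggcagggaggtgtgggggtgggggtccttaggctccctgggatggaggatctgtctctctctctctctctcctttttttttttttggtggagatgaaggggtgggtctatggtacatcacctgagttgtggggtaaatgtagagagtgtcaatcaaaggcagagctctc
The window of HDAC10 held 4 GC boxes and 1 CCAAT box, and that of KDM5B held 3 GC boxes. Neither motif was found in the windows of KAT2A and CHD2. The GC box thus appeared in 1 of the 2 windows of genes that rose and in 1 of the 2 of genes that fell. It was present in 40.1% of all 35116 windows of the same length and in 61.0% of the 59 chromatin genes with a single window, and the CCAAT box in 28.0% and 30.5%. The CHD2 window contained 0 CpG dinucleotides, against 10 in KAT2A and 27 each in HDAC10 and KDM5B.

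Among partner genes of the same complexes, listed by function, 4 rose and 6 fell of the 112 measured of 154 listed (8.93%, beside 8.65% of all genes). Their median log2 change was -0.03. By other measures their share was above that of all genes: 41 of 112 (36.6%) had an unadjusted p under 0.05, beside 26.7%, and the array pairs were apart for 68.8%, beside 54.8%, with the treated pair below for 41.1%, beside 29.1%. With a prior variance that follows the level, 32 (28.6%) were called, beside 16.3% of all genes. Only 3 of the 112 had a mean level below the median of all genes. With the dimmest 50% of genes left out, 34 of 109 partner genes were called (31.2%), beside 32.2% of the genes kept. Among brighter genes only this share of calls was compared. The shares at an unadjusted p and of array pairs apart were not compared there. The list holds CERS2, a ceramide synthase that is not a subunit of these complexes and did not pass, and without it 10 of 111 were called (9.01%). After median centring of the arrays 7 were higher and 6 lower.

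Among subunits of the coactivator and COMPASS complexes, WDR5, the scaffold shared by COMPASS and ATAC, had 8.31 on both treated arrays, against 7.99 and 8.0 on the control arrays, and rose 1.25-fold (log2 change 0.32 ± 0.07, adjusted p = 0.0454). It was the only one of 10 COMPASS partners to pass, and 2 of the 10 changes were negative, beside 51.5% of all genes. EPC2, a subunit of the NuA4 acetyltransferase complex that holds KAT5, had 8.65 and 8.82 with verticillin A and 9.16 and 9.23 in the control and fell by 0.46 on the log2 scale (adjusted p = 0.0375). Of 20 partners of acetyltransferases it alone passed, with 16 of the 20 changes negative (80.0%, beside 51.5% of all genes) and a median of -0.18, and no test was made of the list.

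Corepressor partners had calls in both directions. In the NuRD and SIN3 list BRMS1, a SIN3 subunit, rose by 0.43 ± 0.08 and GATAD2B, a NuRD subunit, fell by 0.34 on the log2 scale. In the CoREST and NCOR list GPS2 rose by 0.35 ± 0.07 and TBL1X fell by 0.47, although both proteins belong to the NCOR complex. Of the 6 changes in that list 5 were negative (83.3%, beside 51.5% of all genes) and 1 positive, with a median of -0.30. The treated pair lay below the control pair for the same share, 83.3%, beside 29.1% of all genes, and no test was made of the list. Of the SWI/SNF list BICRAL and BCL11A fell by 0.54 and 0.39, and 0 rose. BICRAL is a subunit of the non-canonical BAF complex, and BCL11A is a zinc finger factor that joins BAF complexes. The mean level of BCL11A, 4.98, was below the median of all genes, and it did not pass with a prior variance that follows the level (adjusted p = 0.0570, in a range of 0.0321 to 0.178 over the alternatives run).

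Polycomb partners included 1 call. PHC2, a Polyhomeotic subunit of Polycomb repressive complex 1, had 7.76 and 7.74 on the treated arrays and 8.13 and 8.14 on the control arrays and fell by 0.39 on the log2 scale (adjusted p = 0.0302). Of the 7 measured partners of Polycomb repressive complex 2, 0 passed in limma, with 1 (PHF1, 0.24 ± 0.08) at an unadjusted p under 0.05. The histone chaperone ASF1B, which is linked to DNA replication, rose by 0.35 ± 0.07 (adjusted p = 0.0398) as the only call among 12 chaperone genes. UHRF1, which guides DNMT1 to replicated DNA, had 8.92 and 8.97 on the treated arrays and 8.46 and 8.70 on the control arrays and did not pass (0.37 ± 0.10, adjusted p = 0.0865). Of 15 partners in the ISWI, INO80 and SRCAP complexes, CERS2 left out, 0 passed in limma, with 5 at an unadjusted p under 0.05 that included YEATS4 (-0.35 ± 0.08).

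**Figure D3:**
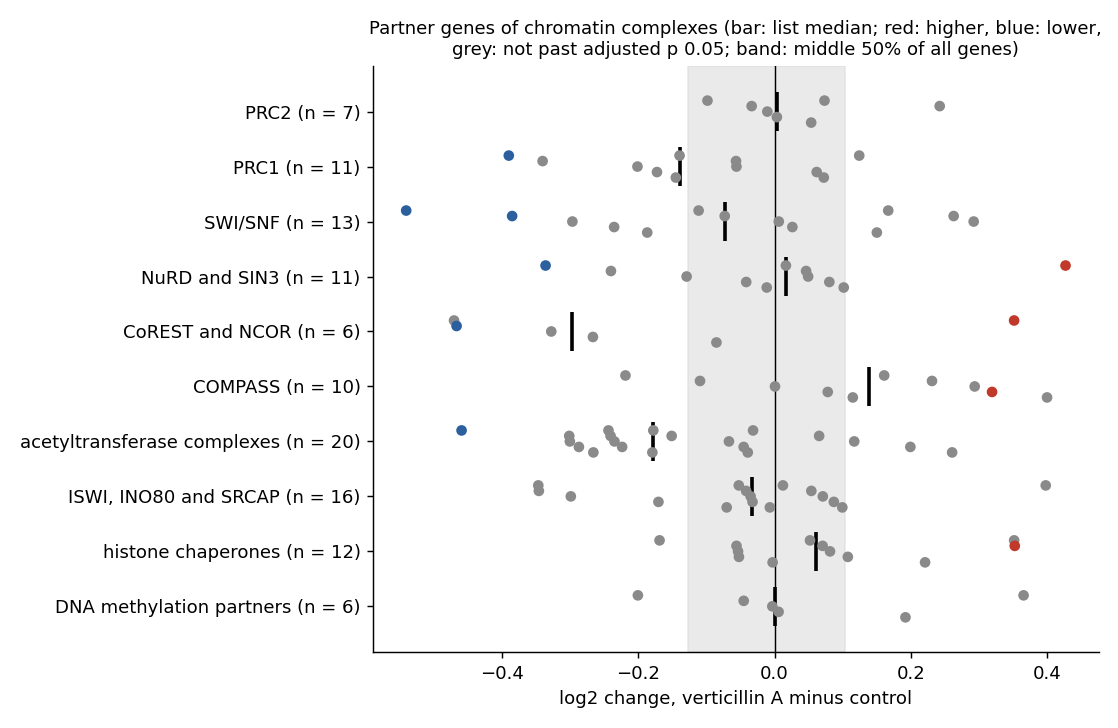
Log2 change (verticillin A minus control) of partner genes in 10 lists of complexes, 1 point per gene, with genes past the test in red (higher) and blue (lower) and a bar at each list's median. The grey band is the middle 50% of all genes. The list medians run from -0.30 for CoREST and NCOR to 0.14 for COMPASS, and no list holds more than 2 called genes.

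Of the 13 genes set apart as sharing only the letters, 2 rose and 0 fell (15.4% called, beside 8.65% of all genes). With them the counts were 5 higher and 7 lower of 109. Both were among the larger changes under the rule: KATNAL1, a relative of the microtubule-severing katanin, had 8.36 and 8.33 with verticillin A and 7.65 and 7.70 in the control, a rise of 0.67 ± 0.07 (adjusted p = 0.0113). NSDHL, an enzyme of cholesterol synthesis, had 9.56 and 9.65 with verticillin A and 8.99 and 8.96 in the control (adjusted p = 0.0138). Both rises were larger than that of SIRT7, whose rise was the largest among the 96 chromatin genes.

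For 5 of the chromatin genes a further probe set was present, and 0 of these genes passed. The probe sets shared a sign of change in HDAC2 (-0.12 and -0.17), NSD3 (-0.21 and -0.25) and TET1 (-0.02 and -0.24). They differed in sign in CBX6 (0.05 and -0.07) and HDAC4 (-0.04 and 0.10). In each pair the first value is that of the brighter probe set, which represents the gene above.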

How the data were processed

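Each array has 1 deposited log2 value for every probe set. GCRMA is named in the submitters' processing notes, without a version, and the sources used here state no build or filter. The log2 scale was read from the range of values, 2.60 to 14.47. Labelling started from 250 ng of total RNA, per the labels' protocols. Of 53617 probe sets, 16098 carried 1 gene symbol in the platform annotation, 0 had several and 37519 are unnamed here. The probe set with the highest mean represented each gene, which gave 14884 genes. Groups came from the sample titles. The test was limma 3.58.1 under R 4.3.3 (a linear model with a constant eBayes prior, 2 residual and 3.43 prior degrees of freedom) over all genes, two-sided, with Benjamini-Hochberg adjustment over 14884 genes and a threshold of 0.05. The steps were run on simulated data, and how often they found changes as small as those of the chromatin genes is not given here. The number of arrays limits the precision, and the between-array correlation was 0.990 to 0.995.

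A log2 change is verticillin A minus control, and SE is its moderated standard error. The members and lists were chosen with earlier results of these data known. Named genes are all called members, up to 4 others per role with the smallest p, fixed paralogs, and up to 4 called genes per partner list or the 1 with the smallest p; those outside it (such as PRMT1, KDM6A and SIRT6) were chosen after their values were seen. Promoter sequences are from RefSeq, GRCh38.p14. Alternatives were quantile normalization, median centring, a filter on dim genes, averaged probe sets, a trended prior, a replicate block and each array left out.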

Additional observations from a re-analysis of the deposited data

How the results depend on the processing

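The counts of calls depended on the settings more than the changes did. With the dimmest 50% of genes left out, 7 chromatin genes were higher and 17 lower (28.6%, beside 32.2% of the 7442 genes kept). Of the 109 partner genes kept, 13 were higher and 21 lower (31.2%). A prior variance with a trend on level gave 6 higher and 14 lower chromatin genes (20.8%, beside 16.3% of all genes). It gave 12 higher and 20 lower partner genes (28.6%). Both settings called KDM4A, CHD4, CHD6, CBX5, SETD5, PRMT3, PRMT9 and TRIM28. Quantile normalization added KDM4A. Median centring moved the median change of the chromatin genes to 0.017, from -0.02, and the higher partner genes to 7. With the replicate number as a block, 1 chromatin gene was higher and 3 lower (SIRT7, HDAC5, KAT14 and KMT5B), or 4.17% beside 3.98% of all genes. Among partner genes 0 were higher and 1 lower (0.893%). Same-numbered arrays did not deviate together (r = 0.01 across genes), so the numbers are not taken as pairs. With an array left out, chromatin genes ranged from 0 to 0 higher and 0 to 0 lower, as did partner genes.

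Across the genes named with values, the sign turned under some setting in 18, none of them past the test. With each array left out in turn, the log2 change ranged from -0.0014 to 0.087 for BRD2, -0.0068 to 0.0087 for CBX1, -0.0032 to 0.078 for CBX3, -0.095 to 0.20 for CBX6, -0.13 to 0.13 for HDAC3 and -0.13 to 0.047 for HDAC4. It ranged from -0.23 to 0.053 for HDAC7, -0.047 to 0.051 for KDM1A, -0.068 to 0.0014 for KDM5A, -0.11 to 0.010 for KMT2C, -0.052 to 0.035 for NSD1 and -0.070 to 0.028 for PRMT1. The range was -0.020 to 0.015 for SETD3, -0.053 to 0.097 for SIRT6, -0.081 to 0.033 for TET1, -0.042 to 0.16 for CDX1, -0.0067 to 0.15 for KRT18 and -0.048 to 0.16 for KRT20. With probe sets averaged, CBX6 was at -0.0090 and HDAC4 at 0.027. On median centring the change was 0.035 for HDAC3, 0.0056 for KDM5A, 0.030 for NSD1, 0.018 for PRMT1, 0.036 for SETD3 and 0.015 for TET1. Centring raises every change by 0.04, and the probe sets averaged for CBX6 and for HDAC4 differ in sign. In all genes whose sign turned with an array left out, the treated and control pairs overlapped.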
